A study of Mus musculus with 8 samples.

Results

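Mpo, Elane and Ctsg encode myeloperoxidase, neutrophil elastase and cathepsin G, the major enzymes of the primary (azurophil) granules of neutrophils. The 3 genes were taken by name from a deposited table of 16434 genes, and all 3 were listed there with a value in each of 8 mouse bone marrow libraries. Primary granules form at the promyelocyte stage of granulocyte development. Their transcripts are abundant in promyelocytes and are switched off before the secondary (specific) and tertiary (gelatinase) granules are made, so a mature neutrophil carries the proteins with little of the mRNA. Myeloperoxidase is a haem enzyme that makes hypochlorous acid, while elastase and cathepsin G are serine proteases that are stored in active form after a dipeptide is cut from their precursors.

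The study profiled acute leukaemias of mice that overexpress N-Myc. The leukaemic groups were an acute myeloid leukaemia (AML, sorted as Mac1+Gr1+GFP+), acute lymphoblastic leukaemias of the B lineage (B-ALL, B220+GFP+) and of the T lineage (T-ALL, CD3+GFP+), and an acute undifferentiated leukaemia (AUL, B220-CD3-Mac1-Gr1-GFP+). The normal groups were myeloid cells (Mac1+Gr1+), B cells (B220+), T cells (CD3+) and lineage-negative cells (B220-CD3-Mac1-Gr1-), and the labels give C57BL/6 and 8-10 weeks for every library. Each group was 1 library of poly(A) RNA, so a difference between 2 groups compares 2 libraries and has no replicate check and no p-value. The labels used here name neither the promoter that drove N-Myc nor the number of mice behind a library.

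Values are FPKM, fragments scaled by transcript length and by mapped fragments, as deposited. The totals recovered from the steps of these values ran from 33818611 to 52280315 fragments per library. Mycn, which encodes N-Myc, had FPKM of 719 to 1858 in the 4 leukaemias and of 0.518 to 5.24 in the 4 normal libraries. Some libraries held markers that go against their sort. The AML library had 1.63 FPKM of Itgam (Mac1) and 8.91 of Ly6g, against 208 and 798 in normal myeloid cells, whereas Ly6c2, the other Gr1 antigen, had 1081 and 609. The AUL library had all 6 T-cell markers at 52.0 FPKM or more, with a sum of 1316. The normal lineage-negative library had summed FPKM of 13954 for 6 neutrophil markers, 2708 for 6 basophil and mast cell markers, 1442 for 5 eosinophil markers and 649.7 for 6 B-cell markers. Over all libraries, monocyte markers summed to 48.0 (T-ALL) to 1389 (normal lineage-negative cells), erythroid to 2.73 (AML) to 143 (AUL), plasmacytoid dendritic cell to 72.0 (AML) to 1502 (normal B cells) and plasma cell markers to 67.6 (AUL) to 431 (normal lineage-negative cells). The part of such cells in the values of Mpo, Elane and Ctsg was not tested. In bulk libraries such as these, fewer cells of a type and less RNA per cell cannot be told apart.

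In mm10, Mpo (ENSMUSG00000009350) lies on the plus strand of chromosome 11 from 87793581 to 87804413, with 6 annotated transcripts and 14 exons in the longest. Elane (ENSMUSG00000020125) lies on the plus strand of chromosome 10 from 79886312 to 79888216, with 1 transcript of 5 exons. Ctsg (ENSMUSG00000040314) lies on the minus strand of chromosome 14 from 56099881 to 56102574, with 2 transcripts and 5 exons in the longer. The genes are thus on 3 chromosomes, and Elane has another primary granule protease gene beside it: Prtn3, which encodes proteinase 3, ends 3138 bases before Elane starts.

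Because the 3 genes had like patterns over the libraries, their promoters are shown, with that of Prtn3. Each window holds 250 bases before and 50 bases after the start that RefSeq gives, read 5′ to 3′ on the gene's own strand from RefSeq on GRCm38.p6. Capitals mark matches, on either strand, to short core motifs of factors that act in granulocyte development: GAGGAA for PU.1, AACNG for MYB and TGTGGT for RUNX. That start is the first base of the gene as given above for Elane and Ctsg. For Mpo and Prtn3, whose spans in the files begin earlier, it lies 203 and 5191 bases inside the span, at 87793784 and 79879667. The windows are chr11:87793534-87793833 (plus strand) for Mpo, chr10:79886062-79886361 (plus strand) for Elane, chr14:56102525-56102824 (minus strand) for Ctsg and chr10:79879417-79879716 (plus strand) for Prtn3.
Mpo: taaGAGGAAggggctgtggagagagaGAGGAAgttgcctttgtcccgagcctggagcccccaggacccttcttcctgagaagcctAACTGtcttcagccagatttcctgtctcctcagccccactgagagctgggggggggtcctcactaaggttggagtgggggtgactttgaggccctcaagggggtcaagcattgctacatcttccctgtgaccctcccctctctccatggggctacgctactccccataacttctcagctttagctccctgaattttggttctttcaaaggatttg
Elane: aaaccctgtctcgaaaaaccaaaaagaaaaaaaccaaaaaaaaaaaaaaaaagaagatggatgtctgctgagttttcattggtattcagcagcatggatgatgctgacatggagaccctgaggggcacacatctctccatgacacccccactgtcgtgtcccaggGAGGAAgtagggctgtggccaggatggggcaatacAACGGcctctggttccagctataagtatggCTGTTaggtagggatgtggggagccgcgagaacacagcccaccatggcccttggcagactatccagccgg
Ctsg: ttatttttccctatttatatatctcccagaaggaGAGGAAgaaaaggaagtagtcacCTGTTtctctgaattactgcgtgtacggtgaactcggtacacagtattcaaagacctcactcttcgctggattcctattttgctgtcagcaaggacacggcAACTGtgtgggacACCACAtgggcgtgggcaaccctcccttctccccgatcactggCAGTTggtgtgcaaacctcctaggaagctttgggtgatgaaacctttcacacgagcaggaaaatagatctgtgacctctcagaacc
Prtn3: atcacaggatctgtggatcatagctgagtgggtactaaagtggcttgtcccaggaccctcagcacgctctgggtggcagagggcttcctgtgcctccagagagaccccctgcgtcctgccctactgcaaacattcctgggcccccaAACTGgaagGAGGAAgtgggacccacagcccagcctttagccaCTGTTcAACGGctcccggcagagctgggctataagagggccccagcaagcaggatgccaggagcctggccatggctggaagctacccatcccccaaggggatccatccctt

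All 4 windows held GAGGAA, which 28.3% of 32851 RefSeq promoter windows of the same length hold. Counted from the RefSeq starts, it stood at -85 in Elane and -95 in Prtn3, at -216 in Ctsg, and at both -247 and -224 in Mpo. AACNG was also in all 4, but it is short and 80.3% of all windows hold it. TGTGGT was in the Ctsg window alone, on the opposite strand at -79, and in 16.8% of all windows. The C/EBP motif searched, TTGCNNAA, which 10.8% of windows hold, and the MYC E-box CACGTG, which 7.15% hold, were not among the letters of these 4 windows. No motif overlapped another in them, and a match describes the letters only.

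The 3 genes were abundant in 2 of the 8 libraries, AML and normal lineage-negative cells, and lower in the other 6. Mpo, the peroxidase, had 2220.1 FPKM in AML and 354 in normal myeloid cells. It had 33.6 in AUL and 4089 in normal lineage-negative cells. In the lymphoid gates Mpo had 104.3 in B-ALL and 228 in the normal B library, and 27.6 in T-ALL and 104.6 in normal T cells. The lineage-negative library was thus the highest for Mpo, and T-ALL the lowest. These values rest on 1477 fragments in AUL to 236227 in normal lineage-negative cells, and only B-ALL and normal T cells, neighbours in the order of levels, had 95% counting intervals that overlapped (102 to 107 and 102 to 108).

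Elane, the elastase gene, had 3481 FPKM in AML and 445 in normal myeloid cells. It had 33.9 in AUL and 2797 in normal lineage-negative cells. In B-ALL it had 96.2 and in normal B cells 158, and in T-ALL 23.8 and in normal T cells 62.0. AML was the highest library for Elane, and all neighbours in its order were apart by more than their counting intervals. Elane stood 9th among the listed genes of the AML library and 10th in normal lineage-negative cells, where Mpo stood 26th and 5th.

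Ctsg, the cathepsin G gene, had 1127 FPKM in AML and 72.3 in normal myeloid cells. It had 8.79 in AUL and 1059.9 in normal lineage-negative cells. In B-ALL it had 31.8 and in normal B cells 64.1, and in T-ALL 5.43 and in normal T cells 31.8. T-ALL was again the lowest, resting on 235 fragments (4.76 to 6.17 FPKM), and B-ALL and normal T cells could not be told apart by counting error. Ctsg had the lowest FPKM of the 3 genes in every library, a comparison per length that rests on 1299 bases for Mpo and 1002 for Ctsg. With the longest Mpo transcript of 2750 bases, Mpo in AML would have 1049 FPKM, below Ctsg. In the other libraries Ctsg would stay the lowest. Intervals here and below are exact Poisson intervals or, for ratios, intervals for 2 counts, and they cover counting error only.

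**Figure D1:**
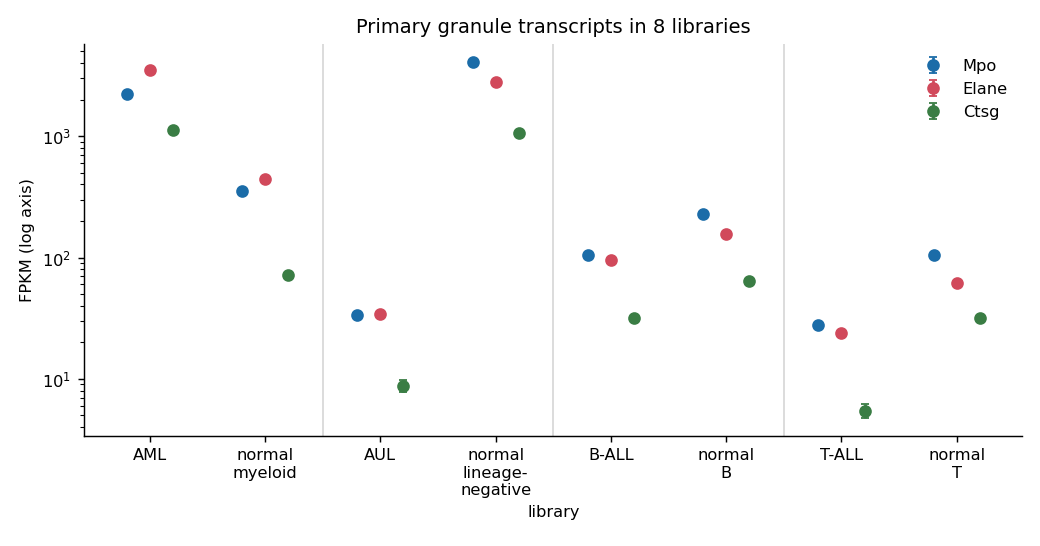
FPKM (log axis) of Mpo, Elane and Ctsg in each of the 8 libraries, leukaemias left of the normal library of their gate; bars are 95% Poisson intervals and are mostly smaller than the points. AML and normal lineage-negative cells held at least 1059.9 FPKM of each gene, and each other library at most 445 (Elane in normal myeloid cells).

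Together the 3 genes took 0.722% of all fragments in AML (exact binomial 95% interval 0.719% to 0.724%) and 0.0943% in normal myeloid cells (0.0934% to 0.0951%). They took 0.00837% in AUL and 0.895% in normal lineage-negative cells. In B-ALL and normal B cells the shares were 0.0256% and 0.0505%, and in T-ALL and normal T cells 0.00632% and 0.0225%. The share was therefore highest in the normal lineage-negative library, which is the only normal library above that of normal myeloid cells.

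The AML library was compared with its normal counterpart of the Mac1+Gr1+ gate. All 3 genes were higher in AML. Mpo was 6.26-fold higher (95% counting interval 6.18 to 6.35), Elane 7.81-fold (7.70 to 7.93) and Ctsg 15.6-fold (15.1 to 16.1). On the log2(FPKM + 1) scale the differences were 2.64, 2.96 and 3.94. A gene was called when it differed at least 2-fold on that scale and had at least 1 FPKM in the higher library, and 3 of 3 were called higher, where 43.3% of 9965 genes tested were called higher and 26.7% lower. The background is thus large, and the median log2 difference of all genes was 0.56. It was -0.48 after median-ratio scaling (each library divided by its median ratio to the gene-wise mean) and 0.77 when libraries were scaled to 1 FPKM sum. The share of calls that were higher was 61.8% as deposited, 36.0% after median-ratio scaling and 66.3% with equal sums. The 3 genes stayed at least 2-fold higher under each scaling, with log2 differences of 1.64 for Mpo, 1.96 for Elane and 2.95 for Ctsg after median-ratio scaling.

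The 6 neutrophil markers had a summed FPKM of 4385 in AML, against 116245 in normal myeloid cells. None of them was at 0 in AML, where S100a9 had 2584 FPKM (65795 in normal myeloid cells) and Cxcr2, the lowest, had 0.287 (329). The later granule genes moved the same way as those markers. All 13 secondary and tertiary granule genes were at least 2-fold lower in AML, with a median log2 difference of -3.97. Mmp9, the gelatinase of the tertiary granules and also 1 of the neutrophil markers, had 1.37 FPKM in AML and 3723 in normal myeloid cells. Ltf, lactoferrin of the secondary granules, had 66.4 and 26716, and Camp, the cathelicidin precursor, 1822 and 10386. The summed FPKM of Mpo, Elane and Ctsg was 0.656 of that of the 13 later genes in AML and 0.00928 of it in normal myeloid cells. The part of the differing share of mature neutrophil RNA in the higher values of Mpo, Elane and Ctsg was not tested.

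**Figure D2:**
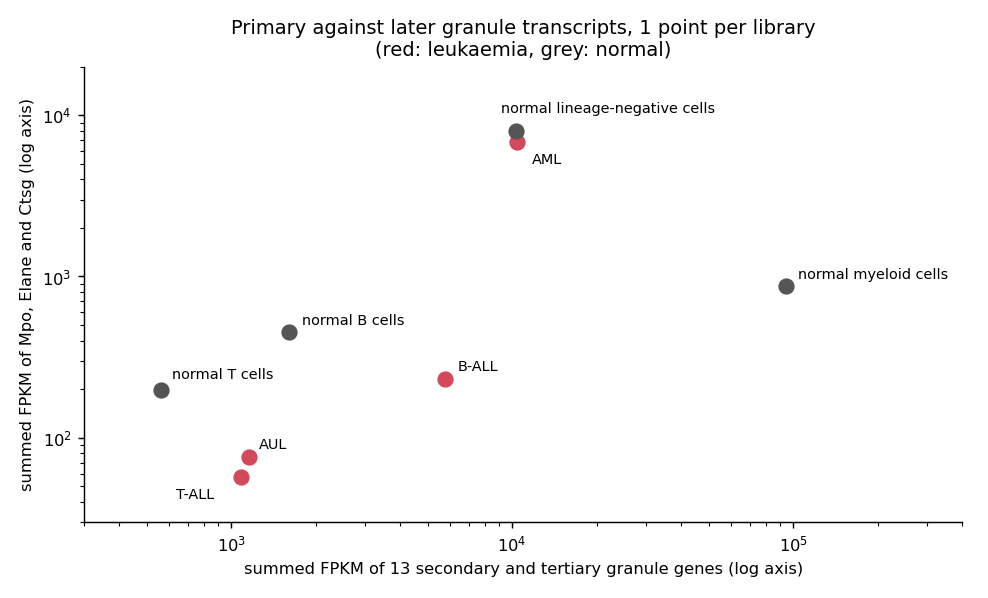
Summed FPKM of Mpo, Elane and Ctsg (vertical, log axis) against summed FPKM of 13 secondary and tertiary granule genes (horizontal, log axis), 1 point per library, leukaemias in red and normal cells in grey. AML (0.656) and normal lineage-negative cells (0.770) had the 2 highest ratios of the sums, and normal myeloid cells had the lowest ratio (0.00928).

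AML was also set against normal lineage-negative cells, the normal library in which immature cells should be enriched. Here 0 of 3 genes were called, by the 2-fold rule and without a test. Mpo was 1.84-fold lower in AML (1.83 to 1.85, log2 difference -0.88). Elane was 1.24-fold higher (1.23 to 1.25, 0.32) and Ctsg 1.06-fold higher (1.05 to 1.08, 0.09). Among all genes, 11.5% of 10682 were called higher and 29.2% lower in this comparison. The 3 genes thus did not keep 1 ratio between these libraries, since Mpo was lower and Elane higher by more than counting error. This comparison shares the AML library with the one above, so the pair is not independent.

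Prtn3, a further azurophil serine protease gene and the neighbour of Elane, had 1061 FPKM in AML, 353 in normal myeloid cells and 2414 in normal lineage-negative cells. It was 3.01-fold higher in AML than in normal myeloid cells (2.94 to 3.07), a log2 difference of 1.58 that was 0.58 after median-ratio scaling and then below the 2-fold rule. It was 2.28-fold lower than in normal lineage-negative cells (2.25 to 2.31) and was called lower there. In the other pairs Prtn3 had 98.3 in B-ALL and 159.6 in the normal B library, 24.5 in T-ALL and 52.6 in normal T cells, and 22.5 in AUL and 2414 in normal lineage-negative cells. Its log2 differences in those pairs were -0.69, -1.07 and -6.68.

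B-ALL cells had less of each gene than normal B cells, and only Mpo passed the 2-fold rule. Mpo was 2.19-fold lower in B-ALL (2.12 to 2.26, log2 difference -1.12), Elane 1.64-fold lower (1.57 to 1.71, -0.71) and Ctsg 2.02-fold lower (1.89 to 2.15, -0.99). Ctsg lay just outside the rule on the log2(FPKM + 1) scale and passed it after median-ratio scaling, with equal FPKM sums and with a pseudocount of 0.1 (-1.16, -1.05 and -1.01). So 1 of 3 genes was called lower, where 21.9% of 10608 genes were called lower and 18.2% higher. The later granule genes differed in the other direction. Of 13 secondary and tertiary genes 12 were at least 2-fold higher in B-ALL, with a median log2 difference of 2.15, and the summed FPKM of the 6 neutrophil markers was 7675 in B-ALL, against 1937 in the normal B library. Ltf, for example, had 1730.1 in B-ALL and 368 in the normal B library. The ratio of the summed FPKM of the 3 genes to that of the 13 later genes was 0.0403 in B-ALL and 0.280 in the normal B library. The part of RNA of mature neutrophils in the levels in B-ALL was not tested. The median log2 difference of all genes was -0.02, and -0.18 after median-ratio scaling.

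T-ALL cells had the lowest levels of the 3 genes, and 3 of 3 were called lower than in normal T cells. Ctsg was 5.86-fold lower (5.09 to 6.77, log2 difference -2.35), Mpo 3.79-fold lower (3.58 to 4.02, -1.89) and Elane 2.60-fold lower (2.41 to 2.81, -1.34). In this comparison 24% of 10461 genes were called lower and 22.1% higher. The share of calls that were higher was 47.9% as deposited and 34.7% after median-ratio scaling, under which the median of all genes was -0.25 in place of 0.03. The 6 neutrophil markers summed to 898 FPKM in T-ALL and 702 in normal T cells, and the secondary and tertiary genes had a median log2 difference of 0.46, with 3 of 13 called higher and 1 lower. Basophil and mast cell markers summed to 1.80 in T-ALL and 568 in normal T cells, and B-cell markers to 5.88 and 630.3. The part of such other cells in the lower values in T-ALL was not tested.

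The AUL library was compared with the normal lineage-negative one, where the 3 genes were at or near their highest. All 3 were called lower, with 29.5% of 10759 genes called lower and 13.6% higher. Mpo was 121.6-fold lower in AUL (115.6 to 128.1), Ctsg 120.5-fold (107.5 to 135.5) and Elane 82.4-fold (77.6 to 87.6), with log2 differences of -6.88, -6.76 and -6.32. The 13 secondary and tertiary granule genes were all at least 2-fold lower as well, with a median of -3.13, and the neutrophil markers summed to 1420.5 FPKM in AUL and 13954 in normal lineage-negative cells. Stem and progenitor markers summed to 1.28 in AUL and 308 in normal lineage-negative cells, and all 6 were under 1 FPKM in AUL. This comparison shares its normal library with that of AML against lineage-negative cells.

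**Figure D3:**
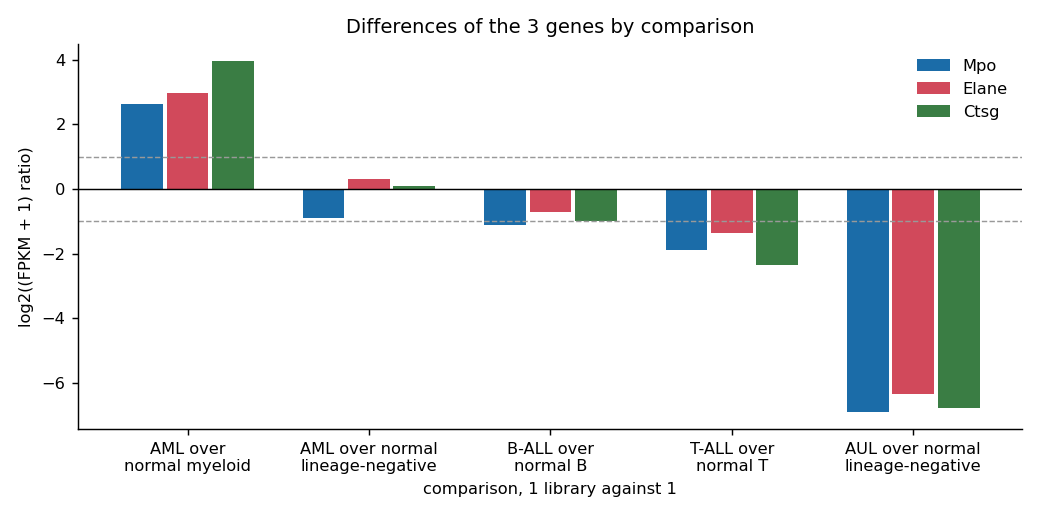
Difference in log2(FPKM + 1) of Mpo, Elane and Ctsg in 5 comparisons of 1 library with 1 other; a bar above 0 is higher in the leukaemia, and dashed lines mark 2-fold. The bars stand at 2.64 to 3.94 for AML over normal myeloid cells and at -6.88 to -6.32 for AUL over normal lineage-negative cells.

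Among the leukaemias, the genes were far higher in AML than in the other 3. Mpo was 21.3-fold higher in AML than in B-ALL, 66.0-fold higher than in AUL and 80.4-fold higher than in T-ALL. For Elane the folds were 36.2, 102.6 and 146, and for Ctsg they were 35.4, 128 and 207.6. B-ALL in turn had 3.78-fold more Mpo than T-ALL and 3.10-fold more than AUL. In B-ALL the neutrophil markers summed to 7675 FPKM, against 898 in T-ALL and 1420.5 in AUL.

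Over the 4 leukaemia and normal pairs, limma was fitted with the gate as a block. Mean log2 differences were -1.81 ± 1.26 for Mpo, -1.35 ± 1.23 for Elane and -1.54 ± 1.41 for Ctsg. The ± values are SE that limma moderates with the spread of all genes. The SD of the 4 pair differences was 3.92 for Mpo, 3.82 for Elane and 4.41 for Ctsg. The limma p-values, adjusted by Benjamini-Hochberg over all genes tested, were 0.304 for Mpo, 0.418 for Elane and 0.420 for Ctsg. None of the 3 passed, 0 of 3 had an unadjusted limma p under 0.05, and each was higher in 1 of 4 pairs and lower in 3 of 4. Of 11071 genes, 408 passed (3.69%), 140 of them higher. Different leukaemias stand in as replicates in this fit, and the 4 pairs did not go 1 way. Without the myeloid gate the differences were -3.30 for Mpo, -2.79 for Elane and -3.37 for Ctsg, with adjusted limma p of 0.136, 0.169 and 0.126 (unadjusted 0.0409, 0.0644 and 0.0344). Without the lineage-negative gate they were -0.12, 0.30 and 0.20, so that Elane and Ctsg changed sign.

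The ratios between the 3 genes within a library do not depend on how libraries are scaled. Elane over Mpo was 1.57 in AML (1.56 to 1.58) and 1.26 in normal myeloid cells (1.23 to 1.28), 1.01 in AUL (0.932 to 1.09) and 0.684 in normal lineage-negative cells (0.679 to 0.689). It was 0.922 in B-ALL and 0.692 in the normal B library, and 0.863 in T-ALL and 0.592 in normal T cells. In every gate the leukaemia thus had more Elane per Mpo than its normal counterpart, in 4 of 4 pairs of single libraries. The counting intervals did not overlap, but they are narrow at these fragment numbers and hold no spread between libraries. How often other pairs of genes do the same was not counted. Ctsg over Elane, given below, was higher in the leukaemia of the myeloid gate only. The level of Mpo rests on a length of 1299 bases, close to the mean of its 6 transcripts. With its longest transcript of 2750 bases, a length chosen after the values were seen, Elane over Mpo would run from 1.25 in normal T cells to 3.32 in AML. A change of length multiplies the ratio alike in all libraries, so their order cannot change and is not checked by it.

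Ctsg over Elane had its own order. It was 0.324 in AML (0.320 to 0.327) and 0.162 in normal myeloid cells (0.157 to 0.168), 0.259 in AUL and 0.379 in normal lineage-negative cells, 0.331 in B-ALL and 0.407 in the normal B library, and 0.228 in T-ALL and 0.513 in normal T cells. Normal myeloid cells had the least Ctsg per Elane and normal T cells the most. Ctsg over Mpo was highest in AML, at 0.508 (0.502 to 0.513) against 0.204 in normal myeloid cells, and lay between 0.197 in T-ALL and 0.305 in B-ALL in the remaining libraries.

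The ratio of the neighbours Prtn3 and Elane also differed in AML. Prtn3 over Elane was 0.305 in AML (0.301 to 0.309) and 0.792 in normal myeloid cells (0.775 to 0.810). In the other 6 libraries it ran from 0.662 in AUL to 1.03 in T-ALL. AML was also the only library in which Elane exceeded Prtn3 by more than 2-fold.

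**Figure D4:**
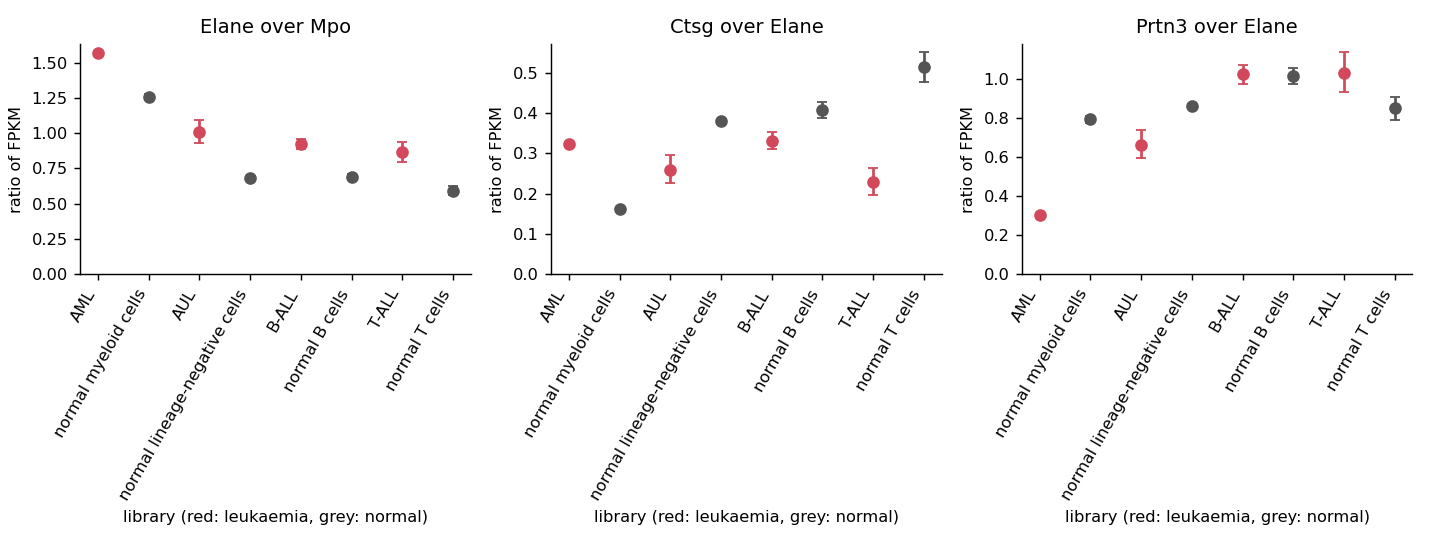
Ratios of FPKM within each library for Elane over Mpo, Ctsg over Elane and Prtn3 over Elane, with 95% counting intervals, leukaemias in red left of the normal library of their gate in grey. Elane over Mpo was higher in the leukaemia of each gate, and Prtn3 over Elane was 0.305 in AML against 0.662 to 1.03 in the other libraries.

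The genes around the 3 loci were read from the same table. Bzrap1, which ends 7653 bases before Mpo starts, had 90.6 FPKM in AML and 13.2 in normal myeloid cells, and 52.6 in normal lineage-negative cells. Mir142hg, which ends 36311 bases before Mpo, was lower in AML than in normal myeloid cells (32.9 against 126), as was Mir142b (5.55 against 30.9). Mks1, 48802 bases after Mpo, was higher (5.20 against 1.45). Lpo, which encodes the related lactoperoxidase and starts 2015 bases after Mpo ends, had 1.78 in AML, 0.336 in normal myeloid cells and 2.89 in normal lineage-negative cells. Epx, the eosinophil peroxidase of the same family, had 0.240 in AML, 13.3 in normal myeloid cells and 117 in normal lineage-negative cells. Mpo levels in AML thus came with little Epx, while both were high in the lineage-negative library. A predicted gene, Gm11505, lies inside Mpo over 5361 bases and had at most 0.706 FPKM. The strand used in counting was not stated, so reads of these overlapping genes cannot be told apart.

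Around Elane, Plppr3 overlaps Prtn3 by 159 bases and Ptbp1 by 4297 bases, so reads may be shared among them, and it had 105.6 FPKM in AML, 15.7 in normal myeloid cells and 92.3 in normal lineage-negative cells. Cfd, the complement factor D gene, starts 2637 bases after Elane and had 4.74 in AML, 0.0207 in normal myeloid cells and 0.463 in normal lineage-negative cells. Ptbp1, an RNA-binding protein gene, had 436 in AML and 100.8 in normal myeloid cells. R3hdm4, 21837 bases after Elane, was lower in AML, with 60.2 and 330, and so was Kiss1r, with 0.463 and 3.95. Among all genes tested, 43.3% were called higher in AML than in normal myeloid cells and 26.7% lower. Near Ctsg lies Mcpt8, a basophil protease gene 14665 bases away, with 29.2 in AML, 55.3 in normal myeloid cells and 819 in normal lineage-negative cells. Prss34, another basophil protease gene that lies elsewhere, had 0.117, 99.4 and 1436 in those libraries. Mcpt8 over Prss34 was 250.5 in AML (115 to 684), against 0.260 to 0.651 in the other 7 libraries, and Cpa3, a further basophil and mast cell marker, was listed at 0 in AML. Of the 6 basophil and mast cell markers 4 were under 1 FPKM in AML. Mcpt8 was not the only one above that level. Ms4a2 had 2.51 in AML, 6.93 in normal myeloid cells and 95.7 in normal lineage-negative cells. Of the granzyme genes past Ctsg, Gzmb had 0.0333 in AML, 1.21 in normal myeloid cells and 14.8 in normal lineage-negative cells.

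The 10 lists of genes of the granule pathway were read in AML against normal myeloid cells, beside 43.3% of all genes called higher, 26.7% lower and a median of 0.56. Of 10 azurophil granule proteins tested besides the 3 genes, 3 were called higher and 3 lower, with a median log2 difference of -0.21. The higher ones were Prtn3, the lysosomal glucuronidase Gusb (165.6 FPKM in AML and 50.9 in normal myeloid cells) and the granule membrane protein Cd63 (887 and 368). Lyz2, lysozyme, which later granules also hold, had 61.8 in AML and 10858 in normal myeloid cells, and the sulfatase Arsa had 2.44 and 9.90. After median-ratio scaling 0 were higher and 6 lower, with a median of -1.16, and with equal FPKM sums the median was 0.0031. Under median-ratio scaling 2477 of all 10337 genes tested were called higher and 4410 lower, with a median of -0.48. Of 6 promyelocyte-associated genes 4 were higher and 2 lower (median 1.66). Ms4a3, a membrane protein of granulocyte and monocyte progenitors, had 474 in AML and 73.2 in normal myeloid cells, and the cystatin Cst7 and the granule protein Nkg7 were higher with it (52.9 against 10.1, and 155 against 39.2). Fcnb, ficolin B, was lower, with 17.6 in AML and 503 in normal myeloid cells.

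Genes that fold, sort and activate granule proteins were 5 higher and 3 lower of 9 (median 1.67). The chaperones Canx (328 in AML and 63.1 in normal myeloid cells) and Calr (852 and 215), which bind the myeloperoxidase precursor, were higher, and so was Gnptab of the mannose phosphate tag (66.7 and 16.6). Ctsc, the peptidase that activates elastase and cathepsin G, was lower, with 28.4 in AML and 76.8 in normal myeloid cells. So were Srgn, the serglycin proteoglycan that retains elastase in granules in mice (333 and 819), and Lyst, which controls granule size (8.69 and 40.4). Of 6 haem synthesis enzymes 4 were higher and 1 lower (median 1.63). Fech, which inserts iron as the last step, had 32.2 in AML and 5.10 in normal myeloid cells, Cpox 18.7 and 3.64, Alad 9.32 and 1.77, and Uros 14.1 and 4.89. Alas1, the first enzyme of the pathway, had 144.5 and 108 and was not called. Ppox was the enzyme called lower, with 26.1 in AML and 64.1 in normal myeloid cells.

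Of 3 granule protease inhibitors 0 were higher and 2 lower by the 2-fold rule (median -1.23). Slpi, the secreted inhibitor of elastase and cathepsin G, had 3.18 FPKM in AML, 722 in normal myeloid cells and 175 in normal lineage-negative cells. Serpinb6a had 10.8 in AML and 26.7 in normal myeloid cells, and Serpinb1a, the intracellular inhibitor of elastase, proteinase 3 and cathepsin G, had 181.7 and 248 and was not called. AML had 3481 FPKM of Elane with 3.18 of Slpi, where normal lineage-negative cells had 2797 with 175. The other inhibitors did not share this contrast with normal lineage-negative cells. Serpinb1a had 109.1 there, less than in AML, and Serpinb6a had 11.6, near its level in AML.

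Of 9 granulocyte transcription factors 3 were higher and 3 lower (median -0.03). After median-ratio scaling 2 were higher and 5 lower (median -1.03), and with equal FPKM sums the median was 0.20. Myb had 189 in AML and 26.3 in normal myeloid cells, Gfi1 110.7 and 18.8, and Cebpa 90.7 and 32.2. Irf8, which favours monocytes over granulocytes, had 3.47 in AML, 58.5 in normal myeloid cells and 485 in normal lineage-negative cells. Cebpb (41.6 and 347) and Spi1, which encodes PU.1 (357 and 836), were lower than in normal myeloid cells, and Cebpe, needed for secondary granules, had 338 and 346. All 4 myeloid growth factor receptors were lower (median -2.65), with 68.3 and 947 for Csf3r, 1.22 and 18.7 for Il3ra, 119 and 534 for Csf2ra and 31.3 and 80.5 for Csf2rb. Of 4 other haem peroxidases and cyclooxygenases 1 was higher (Lpo) and 2 lower (median -1.75), of which Ptgs2 had 1.16 and 82.8. Ptgs1 had 63.3 and 61.7. Of 2 tested serine protease genes of the Ctsg locus 0 were higher and 1, Gzmb, was lower (median -0.999). Over all 10 lists, 20 genes were called higher and 34 lower, and after median-ratio scaling 8 higher and 41 lower. The background turned as well. Of all genes, 4311 were called higher and 2662 lower as deposited, and 2477 higher and 4410 lower after median-ratio scaling. Under median-ratio scaling the promyelocyte-associated list had 2 higher and 2 lower (median 0.67), maturation and sorting 1 and 3 (0.68) and haem synthesis 3 and 1 (0.81).

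**Figure D5:**
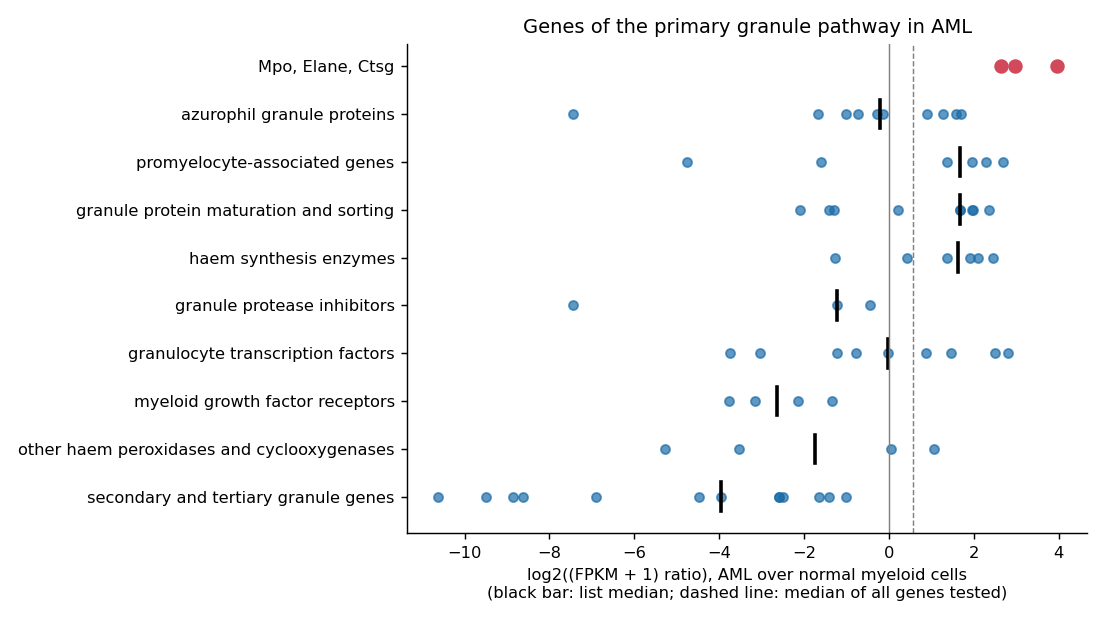
Difference in log2(FPKM + 1), AML over normal myeloid cells, for Mpo, Elane and Ctsg (red) and for the tested genes of 9 lists of the granule pathway (blue points, 1 per gene); black bars are list medians, the solid line is 0 and the dashed line is the median of all genes (0.56). Secondary and tertiary granule genes had a median of -3.97 and lay wholly below 0, and Mpo, Elane and Ctsg at 2.64 to 3.94.

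Against normal lineage-negative cells, the list medians in AML were closer to 0 than against normal myeloid cells, except for azurophil proteins, transcription factors and the Ctsg locus. In this comparison 11.5% of all genes were called higher and 29.2% lower, and several of the counts below lie near those shares. The medians were -0.92 for azurophil proteins (1 higher, 5 lower of 10), -0.63 for promyelocyte-associated genes (0 and 2 of 6), -0.11 for maturation and sorting (1 and 2 of 9) and -0.33 for haem synthesis (1 and 1 of 6). They were -0.09 for inhibitors (0 and 1 of 3), 0.04 for transcription factors (3 and 1 of 9), -0.73 for receptors (0 and 1 of 4), -1.66 for other peroxidases (1 and 2 of 4) and -0.73 for secondary and tertiary genes (2 and 6 of 13). All 3 tested genes of the Ctsg locus were lower (median -3.93). The secondary and tertiary list was mixed by gene, since Chil3 had 3004 FPKM in AML and 868 in normal lineage-negative cells, whereas Mmp9 had 1.37 and 323.

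The 10 genes whose pattern over the 8 libraries was most like the mean of Mpo, Elane and Ctsg were taken by Pearson's r of log2(FPKM + 1), among 5612 named genes with at least 20 FPKM in some library. They were Gstm1 (r = 0.989), Ms4a3 (0.984), Prtn3 (0.983), Kit, Etv6, Tceal8, Atp6ap2, Gatm, Abhd4 and Gmpr (0.964). The r between the 3 genes themselves was 0.986 for Mpo and Elane, 0.991 for Mpo and Ctsg and 0.984 for Elane and Ctsg. These values are descriptions over 8 libraries of different cells, each point shares its library, and no p-value is given. All 10 genes had their 2 highest values in AML and normal lineage-negative cells, which follows from their selection by this pattern and is no separate result. Gstm1, a glutathione transferase, had 306 in AML and 50.1 in normal myeloid cells, and 271 in normal lineage-negative cells. Kit, the receptor of stem cell factor, had 53.4, 17.0 and 57.9 in those libraries and 0.549 in AUL. The other stem and progenitor markers mostly did not share this likeness of AML and normal lineage-negative cells. The 6 markers, Kit among them, summed to 62.6 FPKM in AML and 308 in normal lineage-negative cells, and 4 were under 1 in AML. Cd34, for example, had 0.183 and 68.8. With Spearman's rho 4 of the 10 were again among the first 10, and with a pseudocount of 0.1 8 were.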

How the data were processed

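Poly(A) RNA of 8 libraries, 1 per group, was sequenced in read pairs. Per the labels, the FPKM values were made by the authors after removal of unqualified reads and alignment to mm10, and per the submitters' processing notes STAR, HTSeq and edgeR were used. Versions and strand settings are not given in the sources used here, and the rule by which genes entered the table is not stated.

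From the deposited FPKM, library totals were recovered from the steps of the values: 94.1% to 94.6% of values of single-transcript genes were whole fragments within 0.02, and 67.2% to 70.1% of all values. Fragments of Mpo, Elane, Ctsg and Prtn3 used the smallest lengths (1299, 920, 1002 and 692 bases) at which all 8 libraries came within 0.02 of whole plus a rounding allowance, or within 0.3 above 8000 fragments. The largest distances from whole were 0.143, 0.0695, 0.0287 and 0.0451. The 920 bases of Elane differ from its annotated transcript of 984. No count test was run on them, since 1 library per group has no replicates. Differences are leukaemia minus normal in log2(FPKM + 1). A gene was tested when it had at least 1 FPKM in the higher library and called at 2-fold. Intervals are 95% and cover counting error only.

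limma 3.58.1 in R 4.3.3 (lmFit, eBayes with trend) took genes that reached 1 FPKM in 2 or more libraries, used gate as the blocking factor and called genes at an adjusted p of 0.05. Libraries were paired by gate. Deviations of a leukaemia and its normal counterpart from their group means correlated across genes at 0.37 (B), 0.41 (T), 0.36 (myeloid) and -0.23 (lineage-negative). Python 3.11.15 with pandas 2.3.3 and scipy 1.17.1 did the rest.

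The 3 genes, the 10 pathway lists and the 10 marker lists were chosen with earlier results of these data known. Genes were named by rule: up to 4 per list with at least 5 FPKM and the largest difference between AML and normal myeloid cells, the 10 most alike in pattern, and annotated neighbours; other list genes were named to give their value. Listed genes with no row in the table were not analysed here.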

Additional observations from a re-analysis of the deposited data

Results flagged for a closer look

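The difference between leukaemia and normal had 1 sign in AML and the other sign in the other 3 gates for all 3 genes. Mpo had a log2 difference of 2.64 in the myeloid gate and of -1.12, -1.89 and -6.88 in the B, T and lineage-negative gates, so that AML lay 5.94 above the mean of the other 3. For Elane the values were 2.96 against -0.71, -1.34 and -6.32, a gap of 5.75. For Ctsg they were 3.94 against -0.99, -2.35 and -6.76, a gap of 7.31. Each value compares 1 library with 1 other, and the difference between gates was not tested. The normal library also differs from gate to gate. Set against normal lineage-negative cells, as AUL was, AML had log2 differences of -0.88 for Mpo, 0.32 for Elane and 0.09 for Ctsg.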

How the results depend on the processing

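Of 60 values of the 15 log2 differences of Mpo, Elane and Ctsg under other scalings and pseudocounts, 60 kept their direction and 57 their side of 2-fold. The 3 that did not were those of Ctsg in B-ALL given in the report. The median of the 3 genes in AML over normal myeloid cells was 1.96 after median-ratio scaling, 3.19 with equal FPKM sums and 2.94 with a pseudocount of 10. Over normal lineage-negative cells it was 0.0044 and 0.10 under the 2 scalings, against 0.09 as deposited. In B-ALL the median was -1.16 after median-ratio scaling and -0.83 with a pseudocount of 10, and in T-ALL -2.17 and -1.44. In AUL it was -6.90 and -6.00 with pseudocounts of 0.1 and 10. Of the pathway lists, 20 genes were called higher and 34 lower in AML over normal myeloid cells, against 8 higher and 41 lower after median-ratio scaling and 7 higher and 21 lower at 4-fold. Of all genes, 2477 were called higher and 4410 lower after median-ratio scaling. The share of all genes called at 4-fold was not counted. The limma count of 408 genes was 839 with a pseudocount of 0.1, 3 without the filter on low values and 893 after median-ratio scaling. With the gate left out of the model (no replicate block) it was 41. Leaving out 1 gate in turn gave 0 to 173 genes: 0 without the myeloid gate, where 3552 genes had an unadjusted p under 0.05, 3 without the T or the lineage-negative gate and 173 without the B gate. Under each of these settings 0 of the 3 genes passed. The sign of the limma difference turned without the lineage-negative gate for Elane (-2.79 to 0.30 over the gates left out) and Ctsg (-3.37 to 0.20). The cause of these shifts was not tested.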
